A study of Mus musculus with 12 samples.

Results

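Tyrosine hydroxylase (Th), the enzyme that limits the rate of catecholamine synthesis, was examined together with Ddc, Dbh, Gch1, Slc6a2, Slc18a2, Maoa and Maob in mouse cerebellum. These 8 genes were chosen with earlier results of these arrays known: Th was chosen by its measured intensities, which were high in the older Npc1-null animals, and the others were taken for their place in catecholamine metabolism. Th is therefore described here without a test, and the question asked is whether its pattern was shared by the other genes. The platform annotation paired 6 of the 8 genes, of 12393 genes in all, with 7 probe sets; Slc18a2 and Maob had no probe set listed there and were not analysed here. Of the 6 measured genes, 3 (Th, Ddc and Maoa) passed the filter on low values, and the probe sets of Dbh, Gch1 and Slc6a2 lay below it. Th itself passed only because of the arrays in which it was high.

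NPC1 is a membrane protein that carries cholesterol out of late endosomes and lysosomes, and mice without it lose Purkinje cells of the cerebellum. The mice were of the strain given as BALB/c Npc1 and carried either Npc1+/+ (wild type) or Npc1-/- (null); how the null allele was made is not given in the sources used here. They were killed untreated at postnatal day 21 (P21) or 49 (P49), and RNA of the cerebellum of 3 individual animals per genotype and age was hybridised to 12 Affymetrix arrays. By the labels 11 animals were female and 1, null P49 replicate 1, was male, while 3 P21 arrays (wild-type replicate 2 and null replicates 2 and 3) had Xist levels that went against the label female. Npc1 itself was lower on every null array (8.25 to 10.53, log2 scale) than on every wild-type array (11.06 to 11.75). Array medians of log2 intensity spanned 10.65 to 10.92, and the number of arrays limits the precision. Since whole tissue was measured, fewer cells of a type and less RNA per cell cannot be told apart.

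Catecholamines are made from tyrosine. TH converts tyrosine to L-DOPA and needs tetrahydrobiopterin, whose synthesis begins with GTP cyclohydrolase (Gch1); aromatic amino acid decarboxylase (Ddc) converts L-DOPA to dopamine, and dopamine β-hydroxylase (Dbh) converts dopamine to noradrenaline. Vesicles are loaded by Slc18a2, the noradrenaline transporter Slc6a2 takes released transmitter back up, and the monoamine oxidases (Maoa, Maob) degrade it. The noradrenergic fibres of the cerebellum come from the locus coeruleus in the brainstem, so their cell bodies lie outside the tissue, and Th transcripts are also known from some mouse Purkinje cells.

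The promoters of Th and Ddc are shown because these enzymes catalyse successive steps of the pathway and their values followed different courses over the arrays. Each sequence is the 250 bases before the annotated start, 5′ to 3′ on the gene's strand, from RefSeq on GRCm38.p6, and capitals mark the motif matches. The Th window lies at chr7:142899996-142900245 on the minus strand. Ddc has 2 annotated windows, and the first listed is printed, at chr11:11898145-11898394 on the minus strand. Which Ddc start is used in cerebellum was not measured.
Th: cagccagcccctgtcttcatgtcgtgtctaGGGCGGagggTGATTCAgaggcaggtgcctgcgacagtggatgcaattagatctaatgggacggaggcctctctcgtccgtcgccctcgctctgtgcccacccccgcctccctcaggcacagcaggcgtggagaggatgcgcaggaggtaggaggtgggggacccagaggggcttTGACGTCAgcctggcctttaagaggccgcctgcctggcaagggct
Ddc: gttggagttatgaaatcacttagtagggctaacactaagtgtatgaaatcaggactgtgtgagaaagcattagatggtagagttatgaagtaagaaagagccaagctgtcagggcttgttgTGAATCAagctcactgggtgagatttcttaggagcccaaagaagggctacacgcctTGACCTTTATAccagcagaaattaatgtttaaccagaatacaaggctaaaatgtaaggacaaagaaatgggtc

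Both strands of each window were searched for 5 motifs: the cAMP response element TGACGTCA, the AP-1 element TGANTCA, the GC box GGGCGG, the NBRE element AAAGGTCA and the TATA element TATAAA. The Th window held a cAMP response element 45 bases before the start, an AP-1 element 210 bases before it and a GC box 220 bases before it. The printed Ddc window held an AP-1 element 129 bases before the start. On the opposite strand it held an NBRE element 73 bases before the start, which overlapped a TATA element. RefSeq gave windows for 6 of the 8 genes, and among these the cAMP response element was found in that of Th only. Of 32851 such windows over all genes, 1.55% held that element, 6.75% an AP-1 element, 32.7% a GC box, 1.34% an NBRE element and 12.4% a TATA element. The second Ddc window and that of Dbh held none of the 5; the Gch1 window held 2 GC boxes and a TATA element, that of Slc18a2 2 GC boxes and that of Maoa 1 GC box. A match describes the letters only, since no binding was measured.

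Th was high in the 3 null P49 animals and in no other array. Its intensity as deposited was 4647, 5682 and 5933 in the null P49 animals, against 916, 505 and 778 in wild-type P49. At P21 it was 515, 566 and 892 in wild type and 272, 951 and 360 in null animals. The lowest null P49 array stood 4.89-fold above the highest of the other 9, which ranged from 271.5 to 951.1, so the null P49 arrays overlapped with no other group, while the other 3 groups overlapped with each other. The group means were 657 ± 205 (SD, n = 3) in wild-type P21, 527 ± 370 in null P21, 733 ± 209 in wild-type P49 and 5421 ± 682 in null P49.

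**Figure D1:**
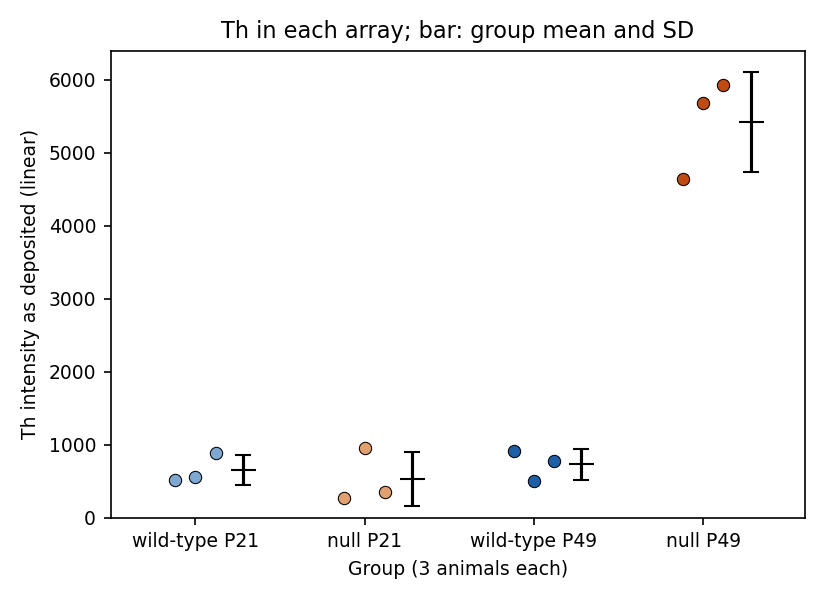
Th intensity as deposited (linear axis) on each of the 12 arrays, by group; points are animals and bars the group mean and SD. The 3 null P49 animals lie between 4647 and 5933 and all others at or below 951.

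On normalised log2 values, Th was higher in null than in wild-type P49 animals by 2.88 ± 0.38 (standard error), and higher in null P49 than in null P21 animals by 3.42 ± 0.38. In linear intensity, the mean at P49 in null animals was 7.40-fold that in wild type and 10.3-fold that in null animals at P21. Between wild-type ages Th differed by 0.13 ± 0.38, and between genotypes at P21 by -0.42 ± 0.38. The genotype difference was thus 3.30 ± 0.53 larger at P49 than at P21, the quantity called the interaction here. Ordered by signed difference among the 7835 genes tested, Th stood 15th at P49, 5th in the interaction, 3rd with age in null animals, 1888th with age in wild type and 7474th between genotypes at P21. These values chose the gene and are given as a description.

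The level of Th outside the null P49 group is poorly determined. The filter required a mean log2 level of 9.93 over the arrays; Th had a mean of 10.06 over all 12 and of 9.28 over the 9 others, on each of which it was below 9.93. Without any 1 of the null P49 animals Th no longer passed. In the fit over all probe sets, which uses no filter, its P49 difference was between 2.61 and 3.07 whichever array was left out. The fold change is uncertain for the same reason: detection calls were not used here, and the low arrays may lie at background. Without the 3 arrays of doubtful sex label the Th difference at P21 was -0.999 and the interaction 3.89. Both values then rest on 1 null P21 array, so they give no spread for that group.

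Of the other measured members, Ddc and Maoa entered the test among genes, and neither passed in any of 5 comparisons. These were genotype at P21, genotype at P49, the interaction, age in wild type and age in null animals (limma, Benjamini-Hochberg adjusted p under 0.05 over all 7835 genes). Dbh, Gch1 and Slc6a2 lay below the filter and were not in this fit. Of all genes tested, 0.0638% passed at P21, 2.65% at P49, 0.549% in the interaction, 0.702% with age in wild type and 6.23% with age in null animals, so a count of 0 among 2 genes is near this background. At an unadjusted p under 0.05, 1 of the 2 tested genes other than Th, in each case Ddc, passed at P21, with age in wild type and with age in null animals, and neither at P49 or in the interaction. Over all genes, 10.1% had an unadjusted p under 0.05 at P21, 9.99% with age in wild type and 20.9% with age in null animals. In a fit over all 22626 probe sets, which takes in Dbh, Gch1 and Slc6a2, none of the 6 probe sets other than that of Th passed in any comparison; the shares over all probe sets were 0.0309%, 1.39%, 0.256%, 0.278% and 2.47% in the same order. There too, 1 of the 6 had an unadjusted p under 0.05 with age in each genotype, beside 8.14% of all probe sets in wild type and 15.2% in null animals, and none in the other comparisons.

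**Figure D2:**
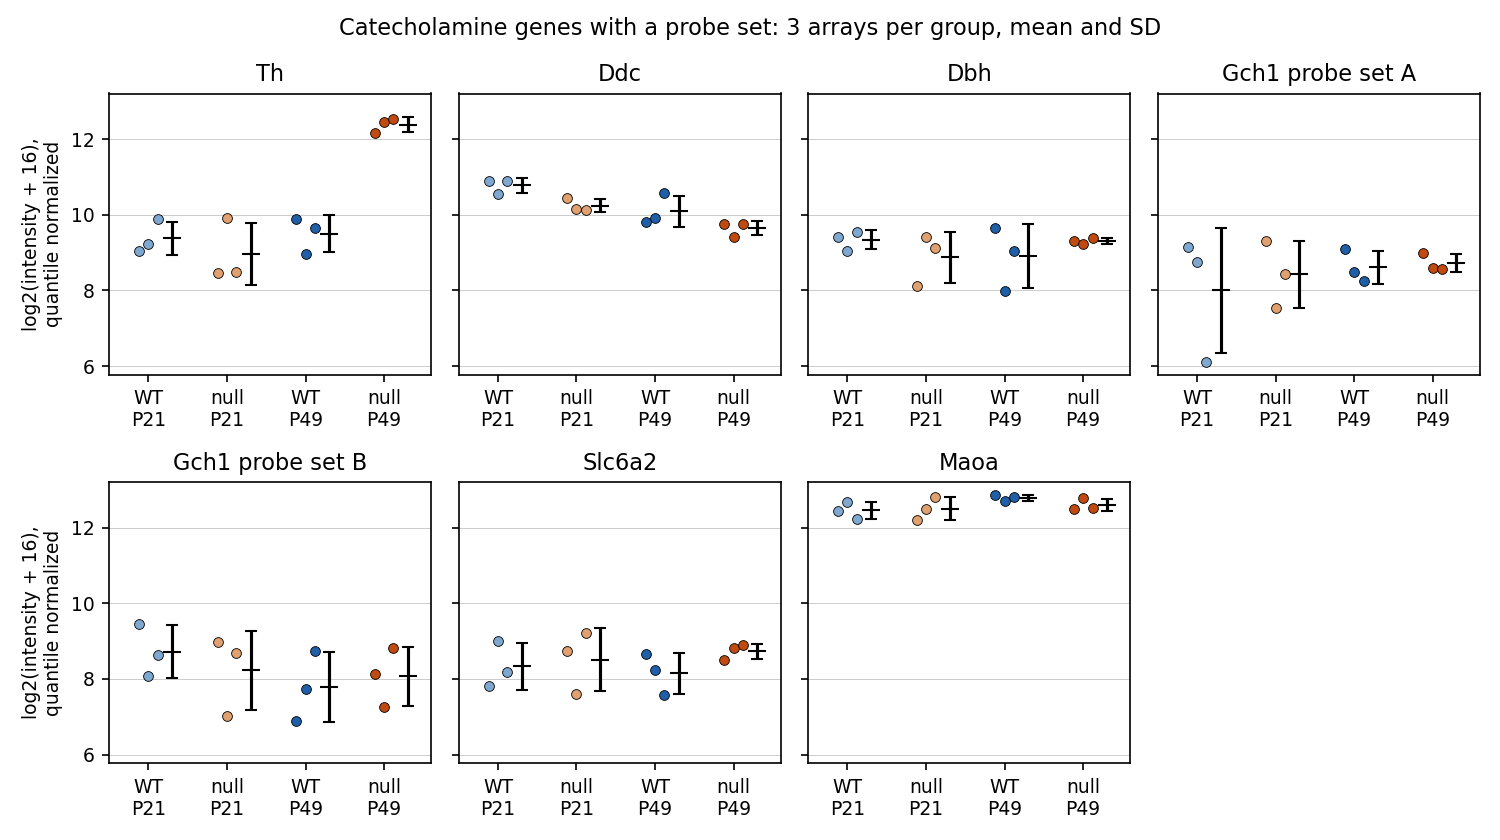
Quantile-normalised log2(intensity + 16) of the 7 probe sets on each of the 12 arrays, 1 panel per probe set, by group. Th lies between 12.15 and 12.53 in null P49 animals and no other panel shows null P49 animals set apart upward.

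Ddc, the next enzyme after TH, was not higher in the null P49 animals, where Th was high. Its intensity was 1892, 1478 and 1808 in wild-type P21 animals and 1196, 1108 and 1139 in null P21 animals. At P49 it was 866, 974 and 1476 in wild type and 916, 739 and 882 in null animals. The null arrays lay below the wild-type arrays at P21; at P49 they did so on normalised values (9.43 to 9.76 against 9.81 to 10.56), but as deposited null replicate 1 exceeded wild-type replicate 1. Over all genes tested, the null arrays lay wholly below wild type in 5.6% at P21, 12% at P49 and 1.21% at both ages. Such shares were not computed for null arrays above wild type or between ages, so groups without overlap there are only described.

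Between null and wild-type animals Ddc differed by -0.54 ± 0.23 at P21 (adjusted p = 0.484). At P49 the value was -0.45 ± 0.23 (adjusted p = 0.515, 95% interval -0.95 to 0.05). The upper bound of that interval is 0.05, beside a difference of 2.88 for Th. The interaction was 0.08 ± 0.33 (adjusted p = 0.975). Averaged over both ages, a contrast added after the data were seen, the genotype difference was -0.49 ± 0.16 (adjusted p = 0.164), against 2.12% of all genes passing.

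With age, Ddc differed by -0.68 ± 0.23 in wild type (adjusted p = 0.287) and in null animals by -0.60 ± 0.23 (adjusted p = 0.156). All 3 null P49 arrays lay below all 3 null P21 arrays, whereas the wild-type ages overlapped on normalised values, 9.81 to 10.56 against 10.56 to 10.89. Averaged over both genotypes, also added after the data were seen, Ddc fell by 0.64 ± 0.16 from P21 to P49 (adjusted p = 0.0335), where 6.97% of all genes passed. This call was lost in 10 of 21 alternatives, with adjusted p from 0.0151 to 0.0872. Among these were 8 of the 12 that each leave out 1 array: wild-type P21 replicates 1 and 3 (0.0779 and 0.0751), null P21 replicate 1 (0.0573), wild-type P49 replicates 1 and 2 (0.0801 and 0.0827) and null P49 replicates 1, 2 and 3 (0.05, 0.0872 and 0.0612). It was also lost on values as deposited (0.0526) and with no filter (0.0668).

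Dbh and Slc6a2, which define noradrenergic neurons, were both dim. Dbh intensity was 664, 507 and 696 in wild-type P21, 208, 698 and 552 in null P21, 781, 249 and 512 in wild-type P49 and 658, 635 and 670 in null P49 animals. The null P49 animals lay within the range of wild-type P49, and every group overlapped with every other. The P49 difference was 0.40 ± 0.45 (adjusted p = 0.882, 95% interval -0.56 to 1.36) and the P21 difference -0.46 ± 0.45 (adjusted p = 0.791). For Dbh the interaction was 0.87 ± 0.63 (adjusted p = 0.834).

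Slc6a2 intensity was 214, 491 and 262 in wild-type P21, 329, 194 and 595 in null P21, 378, 301 and 173 in wild-type P49 and 358, 467 and 467 in null P49 animals. Here too the groups overlapped. At P49 null animals differed from wild type by 0.59 ± 0.50 (adjusted p = 0.833, 95% interval -0.49 to 1.66), and at P21 by 0.18 (adjusted p = 0.935). The P49 intervals of Dbh and Slc6a2 leave room for differences of over 1 on the log2 scale, so the depth of these probe sets does not show that either was unaltered.

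Gch1, which opens the synthesis of the TH cofactor, had 2 probe sets, both below the filter and both spread widely within groups. The first ranged from 285.5 to 524.5 in wild-type P49 and from 368 to 517 in null P49 animals, with a difference of 0.11 ± 0.69 (adjusted p = 0.989, 95% interval -1.38 to 1.60). The second ranged from 99 to 405.5 in wild-type P49 and from 153.5 to 443 in null P49 animals, with a difference of 0.29 ± 0.65 (adjusted p = 0.958). At P21 the differences of these probe sets had opposite signs, 0.41 and -0.50 (adjusted p = 0.89 and 0.852), and their groups overlapped. No direction can be given for Gch1 from these values.

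Maoa, a monoamine oxidase of the outer mitochondrial membrane, lay furthest above the filter and had the smallest standard errors of the members. Its intensity was 5698, 6584 and 4784 in wild-type P21 animals and 4565, 5536 and 7158 in null P21 animals. At P49 it was 7517, 6733 and 7094 in wild type and 5752, 7039 and 5864 in null animals. The genotypes overlapped at both ages. At P21 the null minus wild-type difference of Maoa was 0.04 ± 0.16 (adjusted p = 0.934, 95% interval -0.30 to 0.39). At P49 it came to -0.20 ± 0.16 (adjusted p = 0.778, 95% interval -0.54 to 0.15). From P21 to P49 Maoa differed by 0.33 ± 0.16 in wild type (adjusted p = 0.517) and by 0.10 ± 0.16 in null animals (adjusted p = 0.777).

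**Figure D3:**
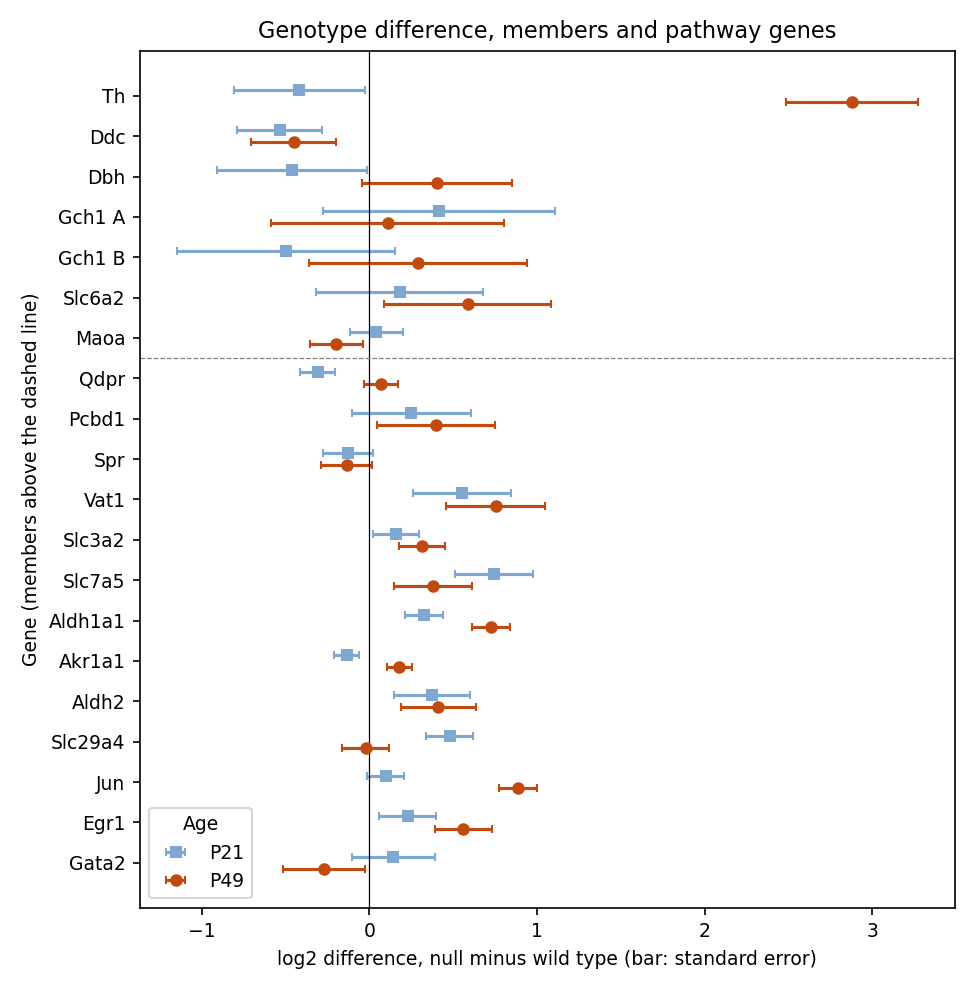
Null minus wild-type log2 difference at P21 and P49 (points, with standard errors as bars) for the measured catecholamine genes, from the fit over all probe sets, and for further pathway genes. Th at P49 lies at 2.88; Jun and Aldh1a1 at P49 lie at 0.88 and 0.72.

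Of 74 further gene symbols of the catecholamine pathway, 52 had a probe set and 36 were tested. At P49, 2 were higher and none lower in null animals, beside 2.65% of all genes passing. At P21 none passed. With age, none passed in wild type, and in null animals 3 rose and 1 fell, beside 6.23% of all genes. The interaction was called for 1, beside 0.549% of all genes. At an unadjusted p under 0.05 stood 5 of the 36 at P21, 6 at P49, 6 in the interaction, 6 with age in wild type and 7 with age in null animals, against 10.1%, 11.3%, 8.44%, 9.99% and 20.9% of all genes. The median differences of the 36 were 0.07 at P21, 0.06 at P49, 0.04 in the interaction, 0.00 with age in wild type and 0.06 with age in null animals, beside medians of all genes between -0.02 and 0.00.

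Of 8 listed tetrahydrobiopterin genes, Gch1 among them, 5 were tested. None passed by genotype at P49, where their median difference was 0.07 and none had an unadjusted p under 0.05. Of all genes, 2.65% passed there and 11.3% had an unadjusted p under 0.05. Qdpr, which regenerates the cofactor, had intensities of 45904, 36731 and 37313 in null P21 and 58427, 60306 and 67292 in null P49 animals. These groups did not overlap, and Qdpr rose with age in null animals by 0.70 ± 0.10 (adjusted p = 0.00146), as did a further probe set (0.97, adjusted p = 9.47e-05). The wild-type ages did not overlap either, with 45605, 44778 and 51494 at P21 and 61694, 61928 and 56906 at P49. Their difference of 0.32 did not pass (adjusted p = 0.26). The share of all genes without overlap between ages was not computed, so the lack of overlap in Qdpr is only described. Between genotypes Qdpr differed by -0.31 at P21 (adjusted p = 0.392), where 2 of the 3 null arrays lay below all wild-type arrays, and by 0.07 at P49 (adjusted p = 0.887). The interaction of 0.38 did not pass (adjusted p = 0.47). In the fit over all probe sets, the further Qdpr probe set differed by -0.43 between genotypes at P21 (adjusted p = 0.255). Its interaction was larger, 0.59, and did not pass either (adjusted p = 0.135). A larger rise with age in null animals than in wild type was thus not shown. Pcbd1, which also recycles the cofactor, differed by 0.40 ± 0.35 at P49 (adjusted p = 0.804), and Spr, which completes its synthesis, by -0.14 ± 0.15 (adjusted p = 0.844).

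Among genes for other steps of synthesis, precursor uptake and storage, 4 of 10 listed were tested. None passed by genotype at P49, beside 2.65% of all genes, and the median difference was 0.35. Of these 4, 2 had an unadjusted p under 0.05, against 11.3% of all genes. Vat1, a vesicle membrane protein, differed by 0.75 ± 0.29 (adjusted p = 0.298). A second Vat1 probe set gave 1.19 ± 0.39 in the fit over all probe sets (adjusted p = 0.252). Slc3a2 and Slc7a5, the subunits of a transporter for large neutral amino acids including tyrosine, differed by 0.32 ± 0.14 (adjusted p = 0.391) and 0.38 ± 0.23 (adjusted p = 0.63).

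Among genes of breakdown and clearance, 8 of 14 listed were tested. By genotype at P49, 1 of these, Aldh1a1, passed, beside 2.65% of all genes, and the list's median difference was 0.13. An unadjusted p under 0.05 was held by 2 of the 8, against 11.3% of all genes. Aldh1a1, a cytosolic aldehyde dehydrogenase, had intensities of 18992, 20323 and 21004 in wild-type P49 and 27196, 34905 and 36067 in null P49 animals. It was higher in null animals by 0.72 ± 0.11 (adjusted p = 0.00228) and rose with age in null animals by 0.82 ± 0.11 (adjusted p = 0.00101). Its interaction was 0.40 (adjusted p = 0.524), so a larger genotype difference at P49 than at P21 was not shown, and at P21 its intensity was 14117, 15132 and 16001 in wild type and 18522, 21447 and 17726 in null animals.

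Slc29a4, a plasma membrane monoamine transporter, fell with age in null animals by 0.84 ± 0.14 (adjusted p = 0.00359), from 6555, 7770 and 5994 to 4253, 3721 and 3730, and differed by -0.02 between genotypes at P49. In wild type its intensity went from 4658, 5646 and 4441 to 4077, 3723 and 3849. In the fit over all probe sets the P21 genotype difference was 0.48 (adjusted p = 0.454) and the interaction -0.50 (adjusted p = 0.615). A larger fall in null animals than in wild type was thus not shown. Akr1a1, an aldehyde reductase, rose with age in null animals by 0.30 ± 0.07 (adjusted p = 0.0321), a call lost in 13 of 23 alternatives (adjusted p from 0.0283 to 0.225), among them those without any 1 of the null P49 animals, without replicate 2 of null P21, or without replicate 3 of wild-type P49. Its further probe sets differed by 0.10, 0.17 and 0.22 and did not pass. At P49 between genotypes, Akr1a1 differed by 0.18 ± 0.07 (adjusted p = 0.358) and the mitochondrial Aldh2 by 0.41 ± 0.23 (adjusted p = 0.568), with -0.07 and 0.22 for further Aldh2 probe sets. The receptors could not be tested among genes, since all 5 with a probe set of 15 listed lay below the filter; in the fit over all probe sets their P49 differences were 0.36 for Drd2, -0.66 for Drd3, 0.13 for Drd4, -0.40 for Adra1b and -0.41 for Adra2c, with adjusted p from 0.849 to 0.983.

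Of 28 genes known to regulate Th transcription or the enzyme's phosphorylation, 19 were tested. By genotype at P49, 1 of these, Jun, passed, beside 2.65% of all genes, and the median difference was 0.01. An unadjusted p under 0.05 was held by 2 of the 19, against 11.3% of all genes. Jun, a subunit of the AP-1 factor, had intensities of 8229, 8669 and 9344 in wild-type P49 and 13842, 17437 and 17119 in null P49 animals. At that age Jun was higher in null animals by 0.88 ± 0.11 (adjusted p = 0.000435). A second Jun probe set differed by 0.51 and did not pass (adjusted p = 0.208). At P21, where the arrays of both genotypes ranged from 11575 to 13268, the difference was 0.10 (adjusted p = 0.76). Wild-type Jun was thus lower at P49 than at P21, by a difference of -0.43 that did not pass in the fit over all probe sets (adjusted p = 0.202). The interaction of 0.79 ± 0.16 passed (adjusted p = 0.0459) but was lost in 15 of 22 alternatives (adjusted p from 0.0121 to 0.183), among them all single-array omissions other than those of null P21 replicates 1 and 2 and null P49 replicate 1. Egr1, an immediate early transcription factor, differed by 0.56 ± 0.17 at P49 (adjusted p = 0.133), and Gata2 by -0.27 ± 0.25 (adjusted p = 0.805).

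Marker genes of the cell types that could carry Th were read on the same arrays. Of all genes tested, 2.65% passed at P49 and 11.3% had an unadjusted p under 0.05. Of 10 noradrenergic markers, which include Dbh and Slc6a2, 8 had a probe set and 2 were tested; neither passed at P49 (none at an unadjusted p under 0.05), and the median difference was -0.07. Summed over the 8, intensity ranged from 5464 to 5675 in wild-type P49 and from 5280 to 6263 in null P49 animals, and from 4747 to 6745 over the P21 animals. Such sums, here and for the lists below, weigh bright probe sets most. Cyb561 alone held 1115 to 1740 in wild-type P49 animals, so a change in dim markers could be hidden. No marker was listed at 0. Of 7 markers of sympathetic neurons and chromaffin cells 4 were tested and none passed (1 at an unadjusted p under 0.05), with a median of -0.12 and sums of 117000 to 120800 in wild type and 108900 to 121100 in null animals at P49. Of 12 brainstem markers 1, Slc17a6, was tested and differed by 0.35 (adjusted p = 0.895). Sums over 10 probe sets were 3738 to 4729 in wild type and 2992 to 12640 in null animals at P49. At P21 these sums were 3203 to 12230 in wild type and 2870 to 4918 in null animals. Of 7 serotonergic markers 3 had a probe set and none was tested. Their P49 sums were 297 to 514 in wild type and 496 to 1221 in null animals.

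Markers of other cell types did move on the arrays in which Th was high, and their part in the Th values was not tested. Of all 7835 genes tested, 119 were higher and 89 lower in null animals at P49, and 4 higher and 1 lower at P21. An unadjusted p under 0.05 was held by 11.3% at P49 and 10.1% at P21. Of 24 tested Purkinje cell markers, 14 were lower in null animals at P49, with a median difference of -0.78 and sums of 678300 to 849700 against 1138000 to 1168000 in wild type; none passed at P21 (1 at an unadjusted p under 0.05). Of 11 tested microglial markers 10 were higher at P49, with a median of 3.06 and sums of 137000 to 172200 against 24910 to 26460, and 3 were higher at P21. Of 14 tested markers of astrocytes and Bergmann glia 2, Gfap and Aqp4, were higher at P49, with a median of 0.16 and sums of 529200 to 601500 against 427800 to 444800. None of 10 tested endothelial and pericyte markers passed at P49 (1 at an unadjusted p under 0.05, median 0.03). None of 10 tested choroid plexus and meningeal markers did either (4 at an unadjusted p under 0.05, median 0.51). Their P49 sums were 283400 to 441700 in null animals against 180900 to 191400 in wild type. At P21 these sums spread as widely, from 132800 to 344800 in wild type and from 95340 to 439200 in null animals.

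**Figure D4:**
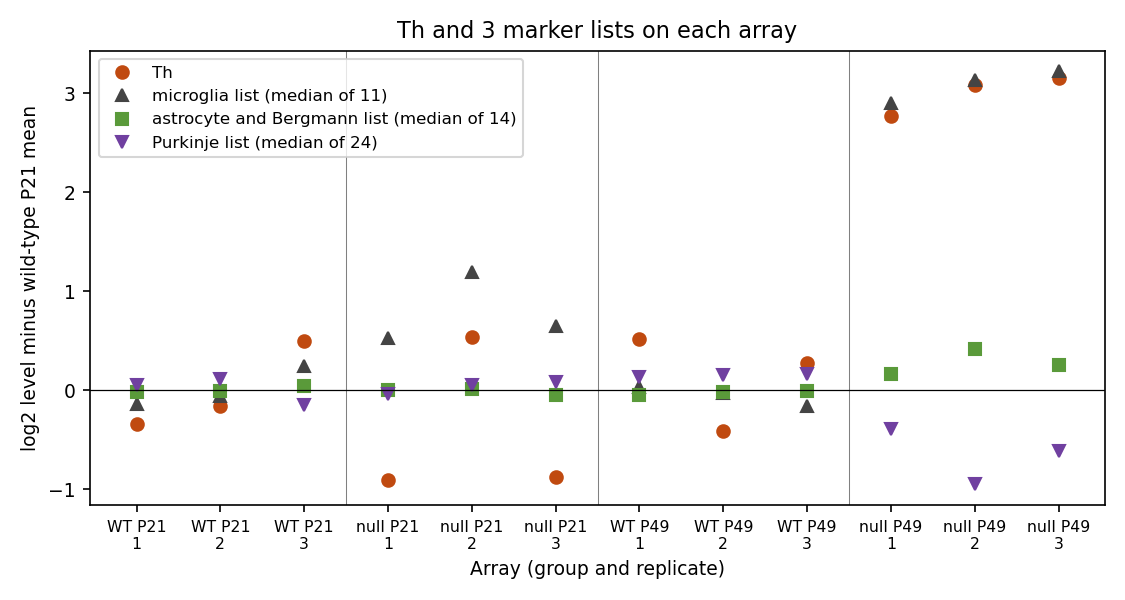
Log2 level minus the wild-type P21 mean on each of the 12 arrays for Th and for the median of the Purkinje, microglial and astrocyte marker lists. On the 3 null P49 arrays the microglial median lies at 2.91, 3.13 and 3.22, the astrocyte median at 0.17, 0.42 and 0.26 and the Purkinje median at -0.39, -0.95 and -0.61.

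The genes most like Th were sought among the 7835 tested by Pearson's r of log2 values over the 12 arrays, a description of arrays that share the same 4 groups. The highest values were 0.952 for S100a1, a calcium-binding protein, 0.934 for Acaa2, a mitochondrial thiolase, 0.933 for Dhrs1, 0.932 for Serpinb6a and 0.932 for A2m, a protease inhibitor. Their genotype differences at P49 were 0.79 ± 0.10, 0.73 ± 0.20, 0.90 ± 0.13, 0.64 ± 0.14 and 0.86 ± 0.16 in the same order. Likeness to Th selects for such a difference, so these values are a description with no test. Of 7834 genes ordered by r, Aldh1a1 stood 29th (r = 0.883), Jun 388th (0.655) and Qdpr 531st (0.601). Of the tested members, Maoa stood 3156th (0.0661) and Ddc 7450th (-0.648).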

How the data were processed

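RNA of the cerebellum of 12 mice in 4 groups of 3 was hybridised to Affymetrix arrays. The authors deposited 1 linear intensity per probe set and array, for 22690 probe sets, 64 of them controls. How probes were summarised and scaled is not given in the sources used here. The mean trimmed by 2% at each end is 5002 on every array. GEO's platform annotation gives 1 gene symbol for 20380 probe sets, several for 691 and none for 1555.

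Values were quantile normalised and taken as log2(intensity + 16), so fold changes of dim genes are understated. A gene was represented by its probe set with the highest mean, and 7835 of 12393 genes passed a filter at the 40th percentile of probe set means (intensity 959). Groups were compared with limma 3.58.1 in R 4.3.3 (1 fit over 4 groups, eBayes with trend, Benjamini-Hochberg adjustment, threshold 0.05), tested on simulated data. A second fit, for members below the filter, took all 22626 probe sets other than controls. The members and all lists were chosen with earlier results of these data known. Named were all members, pathway list genes called in any comparison or among the 3 smallest p at P49, and the 5 genes most like Th by each of 2 measures. Replicate numbers were not treated as pairs, since the labels do not say that they mark a litter or batch. Taken over all genes, same-numbered arrays did not deviate together more than others (median r 0.0025 against 0.00592). Whether some genes share a batch by number was not tested. Alternatives changed the scaling, pseudocount, filter, probe set rule, variance model, samples and a replicate block; the contrasts averaged over ages or genotypes were added after seeing the data. Motifs were searched with Python 3.11.15. Sex was not modelled.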

Additional observations from a re-analysis of the deposited data

Results flagged for a closer look

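Jun, the AP-1 subunit, is listed here because its genotype difference differed between the ages: the difference in null animals was 0.79 ± 0.16 larger at P49 than at P21 on the log2 scale (limma interaction, adjusted p = 0.0459). This call was lost in 15 of 22 alternatives (adjusted p from 0.0121 to 0.183), among them the replicate block (0.0692), averaged probe sets (0.158) and 9 of the 12 omissions of 1 array. On the 3 null P49 arrays Jun stood at 13.76, 14.11 and 14.08, against 13.01, 13.08 and 13.21 in wild type of that age. At P21 it stood at 13.679, 13.699 and 13.504 in null animals and 13.504, 13.594 and 13.495 in wild type. A lower wild-type level at P49 than at P21 is therefore part of this interaction. Purkinje, microglial and glial markers moved on the same arrays, and their part in the Jun values was not tested.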

How the results depend on the processing

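The count of members other than Th that passed was 0 under the 23 alternatives run for Ddc and Maoa (22 for the interaction; Ddc did not pass the filter at the 60th percentile) and the 20 run for the member probe sets (19 for the interaction). The difference of Th at P49 ranged from 2.61 to 3.07 where Th was in the fit. The alternative without the 3 arrays of doubtful sex label left only 1 array in null P21, which limits every value given for it below. The counts over all genes moved by over 1.5 times as follows; the cause was not tested. At P21, 5 genes passed, and 8 on values as deposited, 3 with the filter at the 60th percentile, 3 with probe sets averaged, 1 with only the arrays of the 2 groups, and 3 to 27 without 1 array. At P49, 208 passed, and 400 with only the 2 groups, 356 without the arrays of doubtful sex label and 100 to 321 without 1 array. In the interaction 43 passed, and 18 to 66 without 1 array. With age in wild type 55 passed, and 126 with only the 2 groups, 126 without the doubtful arrays, 36 without the variance trend and 14 to 112 without 1 array. With age in null animals 488 passed, and 126 with only the 2 groups and 171 to 639 without 1 array.

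Of the wider pathway, the 1 gene called in the interaction, Jun, became 0 with 75th percentile scaling, no filter, averaged probe sets, no trend, without the doubtful arrays and with the replicate block (adjusted p = 0.0692 there), and 0 to 1 without 1 array. With age in wild type the count of 0 became 2 with only the 2 groups and 1 without the doubtful arrays. The replicate block was added although the numbers are not known to pair the animals (r of same-numbered arrays from -0.175 to 0.189). It gave 189 genes at P49, 424 for age in null animals and 36 for the interaction, and also lost the Akr1a1 call with age in null animals (adjusted p = 0.0535).

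Of the 5 genes most like Th, 3 were shared with probe sets averaged, 1 without the doubtful arrays and 1 to 4 without 1 array; by deviations, 3 as deposited, 0 without the doubtful arrays and 1 to 3 without 1 array.

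Member differences that had not passed changed sign 32 times, never past the threshold (lowest adjusted p 0.755). Without the doubtful arrays, which left 1 null P21 array, these were Maoa at P21 (-0.14), the Ddc interaction (-0.0058), the Slc6a2 interaction (-0.15), Slc6a2 with age in wild type (0.16) and the first Gch1 probe set with age in null animals (-0.59). Without 1 array the ranges were -0.062 to 0.31 for the Ddc interaction; -0.050 to 0.79 at P49 and -0.82 to 0.019 with age in wild type for Dbh; -0.11 to 0.19 at P21 and -0.055 to 0.25 with age in null animals for Maoa; and -0.17 to 0.64 at P21, -0.051 to 0.76 in the interaction, -0.45 to 0.16 with age in wild type and -0.23 to 0.57 with age in null animals for Slc6a2. For the first Gch1 probe set they were -0.53 to 0.99 at P21, -0.071 to 0.36 at P49, -0.88 to 0.64 in the interaction, -0.34 to 1.18 with age in wild type and -0.15 to 0.74 with age in null animals. For the second they were -0.87 to 0.10 at P21, -0.16 to 0.76 at P49 and -0.75 to 0.26 with age in null animals. Signal over background is not known, which limits Dbh, Gch1, Slc6a2 and the low arrays of Th most. Th did not pass the filter at the 60th percentile.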

Other observations

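Likeness to Th was also taken after removing the group means, which leaves the variation between animals of a group. The highest r of these deviations over the 12 arrays were 0.98 for Psmd1, 0.957 for Gas6, 0.945 for Fam117b, 0.941 for Nudc and 0.937 for Ints9. Of these, Gas6, a ligand of TAM receptors, differed by 0.25 ± 0.10 between genotypes at P49 (adjusted p = 0.319), and the other four by at most 0.18 (adjusted p from 0.811 to 0.997). With 3 animals a group these values describe the arrays only.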
